A study of Homo sapiens with 24 samples.

Results

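Among 12 LNCaP arrays, 3 stood together in a pattern that crossed the construct: HIP1 replicate 4 (HIP1 4) and empty-vector replicates 3 and 4 (vector 3 and vector 4). They are described here against the other 9 LNCaP arrays, within a series of 24 arrays. The 3 were chosen from the expression values themselves. The difference between the 3 and the 9 therefore gets no test, and the text gives it as the value of every array and as counts.

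The series measured gene expression with Illumina bead arrays in 2 human prostate lines given the endocytic adaptor HIP1 or an empty vector, with 6 labelled replicates in each of 4 groups. LNCaP, a prostate cancer line with luminal features, was transfected transiently with HIP1 or with empty vector, and both LNCaP groups were taken at day 4. PNT1a, an immortalised prostate epithelial line, carried HIP1 or empty vector stably and was kept in 0.8 mg/ml of the selection drug G418. Both lines grew in RPMI with 10% fetal bovine serum. The labels name no promoter for the construct, and do not say whether the PNT1a lines are pools or single clones. Nor do they give the cultures, extractions or slides behind the replicates, so every p-value below measures the spread between these replicates, which may be technical. The labels of the 3 arrays differ from those of the other 9 in no more than the construct and the replicate number.

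An expression array reads the RNA of a gene with short probes, and some genes have several probes in different parts of their transcripts. STAT3, one of the genes described, is a transcription factor that JAK kinases activate downstream of IL6-family cytokine receptors, and the series title ties it to HIP1 in prostate cancer. CTNNB1 encodes beta-catenin, which links cadherins to the actin cytoskeleton and carries Wnt signals to the nucleus, and USF1 encodes a transcription factor that binds the E-box.

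The deposited values are log2 intensities. A probe was described when its signal lay above 6.97, a background level, on at least 3 of the 12 LNCaP arrays. This kept 12912 of 48803 probes, 11070 of them with a gene symbol, for 8845 genes. Of the 12912 probes, 324 passed with fewer than 3 of the 9 arrays above the level, and 4 were above it on all 3 arrays and on none of the 9. The 12 arrays had 12099 to 12104 probes above the level, and each had a median of 6.56.

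Luminal markers were expressed on both sides. All 7 with a named probe (KLK3, KLK2, FOLH1, KRT8, KRT18, TMPRSS2 and HOXB13) were above background. Their mean signal was 9.02 to 9.30 on the 3 arrays and 8.99 to 9.32 on the 9. Single markers differed both ways with overlap, as in KLK2 (0.26) and TMPRSS2 (-0.23). In a longer luminal list of 11 genes tested, FOXA1, a pioneer factor of luminal cells, lay below all 9. It read 12.30 on HIP1 4, 12.29 on vector 3 and 12.28 on vector 4, against 12.40 to 12.69 on the 9 (difference -0.22). Markers of other cells were mostly at background: 2 of 8 basal or PNT1a-like, 2 of 10 fibroblast, 1 of 8 leukocyte and red-cell and 1 of 6 neuroendocrine markers passed the level. The mean signal of the leukocyte and red-cell list was 6.53 to 6.59 on the 3 arrays and 6.50 to 6.61 on the 9. The basal list had 6.66 to 6.78 on the 3 and 6.70 to 6.84 on the 9, the fibroblast list 6.78 to 6.91 and 6.79 to 6.90, and the neuroendocrine list 6.65 to 6.79 and 6.61 to 6.78, so that all of these overlapped. Apart from FOXA1, none of the markers named or counted here separated the 3 from the 9.

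A working name of the 3 arrays was a culture state. No label records a culture condition that sets them apart, so the 3 are called by their replicate numbers. Whether culture conditions differed was not tested, and the gene lists below do not decide it.

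After the mean of each construct group was removed, the first component of the 12912 probes held 26.8% of the remaining variance, against 11.5% for the second and 10.5% for the third. Its loadings were 0.55 for HIP1 4, 0.54 for vector 3 and 0.35 for vector 4, and they ran from -0.30 to -0.01 on the other 9. HIP1 2 was the nearest of the 9, at -0.01. The 3 arrays correlated with each other at a mean r of 0.9909 to 0.9922 and with the 9 at 0.9886 to 0.9896. All 12 profiles were thus close. These values chose the arrays and support nothing further.

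**Figure D1:**
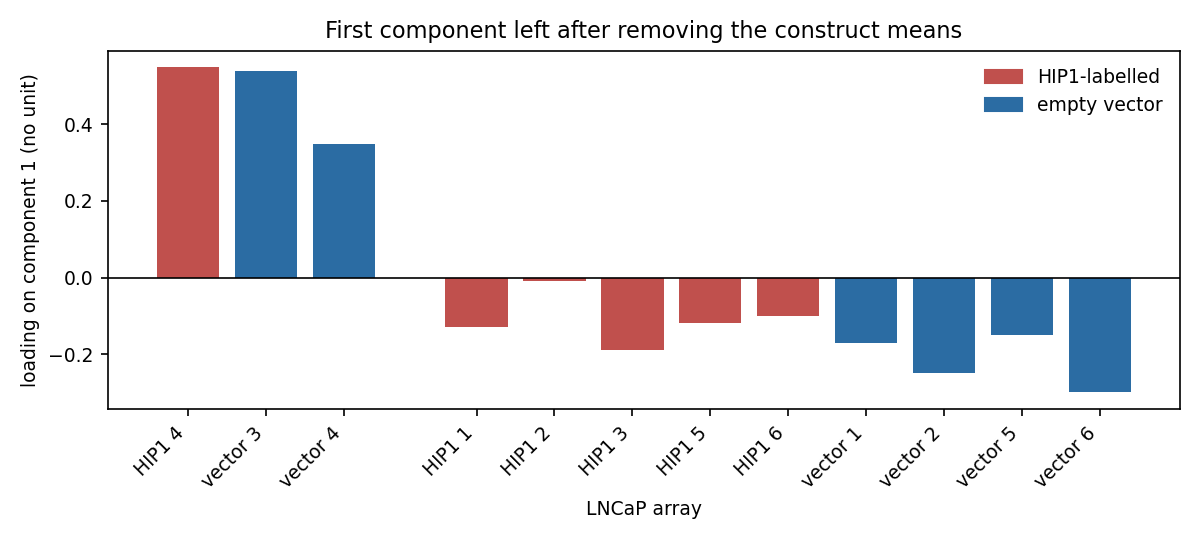
Loading of each LNCaP array on the first component of the values left after removing the construct means (bars, no unit), with the 3 arrays on the left and the other 9 on the right. HIP1 4, vector 3 and vector 4 load at 0.35 to 0.55, and the other 9 lie between -0.30 and -0.01.

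The differences were small and ran both ways. The difference used throughout is the fitted one (the 3 minus the 9) with the construct in the model. It can depart from the plain gap between the means. It ran from -0.93 to 0.74 on the log2 scale, with an SD of 0.16 over probes. No probe reached a 2-fold difference (0.0% of 12912). At a fold of 1.5, a size chosen after the values were seen, 8 probes (0.062%) were higher on the 3 arrays and 30 (0.232%) were lower. In 425 probes (3.29%) all 3 arrays lay above all 9, and in 528 (4.09%) all 3 lay below all 9. By the brightest probe of each gene, 297 of 8845 genes (3.36%) were above and 330 (3.73%) below. Because the arrays were picked from these values, the shares describe the pattern and say nothing of its strength.

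The genes that were lowest on the 3 arrays relative to the 9 were SNRNP40, MT1X, CTNNB1, STAT3 and USF1. The promoters of the 3 among them that were lower by every probe are shown first, with that of FMC1, a gene higher by both of its probes. They come from RefSeq (GRCh38.p14) and run from 250 bases before to 50 after the transcription start, 5′ to 3′ on the strand of the gene. Capitals mark a match to TTCNNNGAA, a core of the STAT3 binding motif. STAT3 lies at chr17:42388393-42388692, minus strand, CTNNB1 at chr3:41199255-41199554, plus strand, USF1 at chr1:161045928-161046227, minus strand and FMC1 at chr7:139340222-139340521, plus strand.
STAT3: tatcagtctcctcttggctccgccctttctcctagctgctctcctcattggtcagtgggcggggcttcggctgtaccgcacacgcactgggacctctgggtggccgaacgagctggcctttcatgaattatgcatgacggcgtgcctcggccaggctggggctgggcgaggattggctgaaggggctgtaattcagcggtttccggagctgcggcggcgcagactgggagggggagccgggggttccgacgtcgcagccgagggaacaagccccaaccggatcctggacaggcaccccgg
CTNNB1: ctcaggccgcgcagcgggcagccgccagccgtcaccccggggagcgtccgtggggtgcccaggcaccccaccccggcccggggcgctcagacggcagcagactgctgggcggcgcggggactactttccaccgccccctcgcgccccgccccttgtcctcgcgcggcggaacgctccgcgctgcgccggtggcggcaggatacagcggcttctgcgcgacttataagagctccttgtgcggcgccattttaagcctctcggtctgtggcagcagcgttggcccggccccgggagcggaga
USF1: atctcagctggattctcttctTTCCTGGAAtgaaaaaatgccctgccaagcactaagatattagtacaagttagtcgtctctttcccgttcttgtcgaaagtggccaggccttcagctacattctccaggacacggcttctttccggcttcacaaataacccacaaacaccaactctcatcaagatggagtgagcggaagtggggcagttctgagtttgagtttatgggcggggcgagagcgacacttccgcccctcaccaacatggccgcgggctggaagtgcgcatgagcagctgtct
FMC1: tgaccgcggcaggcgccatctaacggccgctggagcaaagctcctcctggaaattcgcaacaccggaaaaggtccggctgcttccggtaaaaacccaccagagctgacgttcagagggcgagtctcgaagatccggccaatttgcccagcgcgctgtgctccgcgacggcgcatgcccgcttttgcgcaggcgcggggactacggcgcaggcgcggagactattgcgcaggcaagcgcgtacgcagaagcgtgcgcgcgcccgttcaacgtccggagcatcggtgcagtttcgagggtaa

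The USF1 promoter held 1 match, and the other 3 promoters held 0 matches to it. None of the 4 held a match to the other motifs searched, which were the E-box CACGTG, the ETS motif CCGGAAGT and the cyclic AMP response element TGACGTCA, all searched on both strands. GC content was 65.3% in the STAT3, 74.0% in the CTNNB1, 51.7% in the USF1 and 64.3% in the FMC1 promoter. A promoter was matched for 255 of the 297 higher genes, 286 of the 330 lower genes and 7335 of the 8845 genes tested.

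TTCNNNGAA occurred in 7.45% of the promoters of higher genes, 5.59% of those of lower genes and 5.94% of those of genes tested (7.88% of 27305 promoters). The E-box occurred in 14.5%, 9.44% and 11.1% (7.43% of all), and the ETS motif in 8.24%, 10.1% and 9.86% (4.44% of all), in the same order. The cyclic AMP response element was in 5.1%, 2.45% and 3.52% (1.98% of all). A match is a run of letters and not a bound site.

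STAT3 was lower on the 3 arrays by each of its 3 probes, and no array overlapped. The brightest probe (ILMN_2401978) read 8.50 on HIP1 4, 8.33 on vector 3 and 8.55 on vector 4, against 9.11 to 9.44 (median 9.29) on the other 9. The second (ILMN_2410986) read 7.63, 7.65 and 7.50 on the same 3 arrays, against 8.31 to 8.59 (median 8.39). The third (ILMN_1663618) read 7.80, 8.07 and 7.66, against 8.22 to 8.50 (median 8.38). The differences were -0.81, -0.84 and -0.53, which correspond to 1.75, 1.79 and 1.44 times less signal. Within the HIP1-labelled arrays, where HIP1 4 alone stands for the 3, the brightest probe differed by -0.76. Within the vector arrays it differed by -0.84.

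CTNNB1 was lower by both probes. The brighter read 8.33 on HIP1 4, 8.41 on vector 3 and 8.60 on vector 4, against 9.12 to 9.64 (median 9.25) on the 9. The dimmer read 8.41, 8.36 and 8.40, against 8.98 to 9.36 (median 9.21). The differences of -0.86 and -0.82 again left no overlap.

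USF1 was also lower by both probes. The brighter read 8.10 on HIP1 4, 8.19 on vector 3 and 8.23 on vector 4, against 8.83 to 9.06 (median 8.90). The dimmer read 7.29, 7.08 and 7.32, against 7.83 to 8.22 (median 7.97), so that the differences were -0.76 and -0.79.

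SNRNP40, a protein of the U5 particle of the spliceosome, had the largest difference of any gene, by its 1 tested probe. It read 8.98 on HIP1 4, 9.02 on vector 3 and 9.32 on vector 4, against 9.81 to 10.22 (median 9.98) on the 9. The difference of -0.93 is 1.90 times less signal on the 3 arrays. MT1X, a metallothionein that binds zinc and copper, read 11.79, 12.38 and 11.91 on the same 3, against 12.58 to 13.20 (median 12.85), a difference of -0.87. The probe may share sequence with other metallothioneins, which are near-identical copies. Of the 12 metallothionein and zinc transporter genes tested, 6 had positive and 6 negative differences, with a median of 0.01, and MT1X was the 1 member beyond the 9 arrays.

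**Figure D2:**
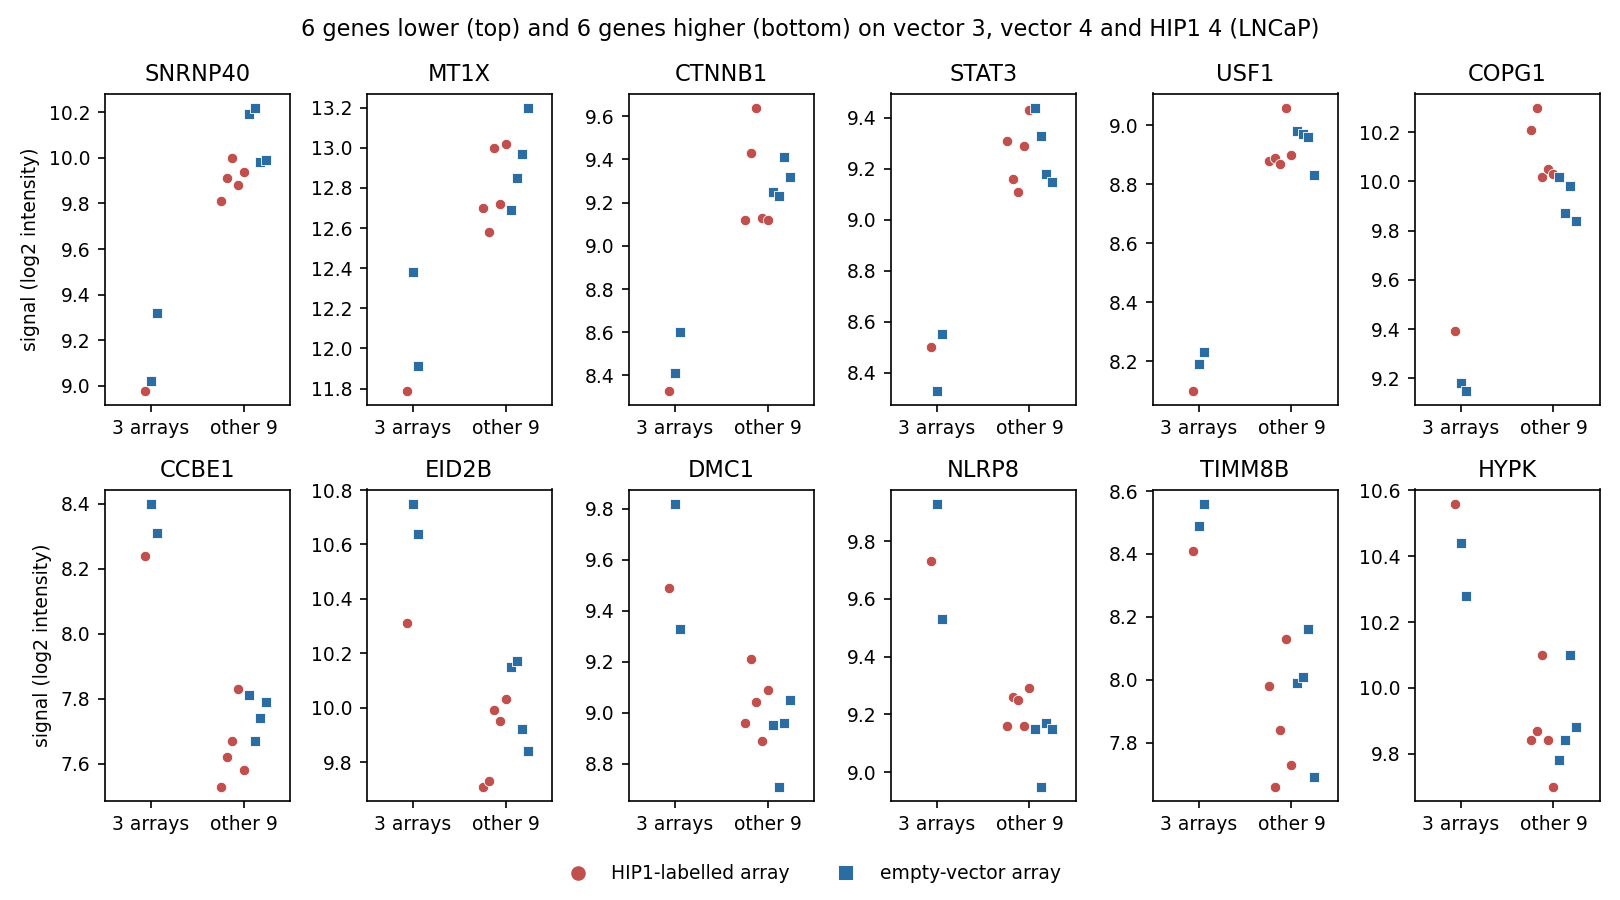
Signal of 12 genes (log2 intensity, brightest probe) on every LNCaP array, with the 3 arrays to the left of the other 9 in each panel, HIP1-labelled arrays as red circles and vector arrays as blue squares. The upper 6 genes are lower and the lower 6 genes higher on the 3 arrays with no overlap, and both colours lie together on each side.

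The other named genes among the lower 15 spanned several compartments. COPG1, a subunit of the coatomer of Golgi transport vesicles, read 9.39 on HIP1 4, 9.18 on vector 3 and 9.15 on vector 4, against 9.84 to 10.30 on the 9 (difference -0.75). RTN3, a reticulon that shapes the endoplasmic reticulum (ER), read 9.74, 9.79 and 9.79, against 10.36 to 10.68 (difference -0.69). Its dimmer probe overlapped between the sides (difference -0.33).

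STT3A and RPN1 are both subunits of oligosaccharyltransferase, which attaches N-glycans to proteins in the ER. STT3A read 10.37 on HIP1 4, 10.29 on vector 3 and 10.33 on vector 4, against 10.75 to 11.15 (difference -0.64). RPN1 read 11.51, 11.47 and 11.62, against 12.02 to 12.32 (difference -0.62). In both genes the 3 arrays lay closer to each other than to any of the 9.

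GNA11, a G protein alpha subunit, read 8.77 on HIP1 4, 8.76 on vector 3 and 9.08 on vector 4, against 9.36 to 9.77 (difference -0.70), and its dimmer probe overlapped (-0.10). PABPN1, the nuclear poly(A)-binding protein, read 9.0, 9.02 and 9.19, against 9.55 to 9.90 (difference -0.66). Both lay without overlap by the brightest probe. TCEA1, a transcription elongation factor, read 9.89, 9.37 and 9.74 by its brightest probe, against 10.11 to 10.64 (difference -0.63), while its dimmer probes differed by -0.23 and 0.12. The last named are CDC42SE1, an effector of the GTPase CDC42 (-0.64, with -0.27 and overlap by its dimmer probe), and SFXN1, a mitochondrial serine carrier (-0.60). Just outside them was TRA2A, a splicing regulator (-0.60).

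FADS2, a fatty acid desaturase, was also among the lower 15. It read 7.81 on HIP1 4, 7.70 on vector 3 and 7.63 on vector 4, against 8.14 to 8.59 (median 8.27), a difference of -0.65. Within the HIP1-labelled arrays, where HIP1 4 alone stands for the 3, the difference was -0.40. Within the vector arrays it was -0.80, and whether these differ was not tested.

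The higher genes had smaller differences. CCBE1, a secreted protein of lymphatic development, read 8.24 on HIP1 4, 8.40 on vector 3 and 8.31 on vector 4, against 7.53 to 7.83 (median 7.67) on the 9. Its difference of 0.60 was the largest among named genes and was the same within each construct (0.60 in both). TIMM8B, a chaperone of protein import into mitochondria, read 8.41, 8.49 and 8.56, against 7.66 to 8.16 (median 7.98, difference 0.56). COX14, an assembly factor of cytochrome c oxidase, read 9.47, 9.26 and 9.19, against 8.56 to 9.07 (median 8.86, difference 0.53).

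HYPK, a chaperone-like partner of huntingtin, read 10.56 on HIP1 4, 10.44 on vector 3 and 10.28 on vector 4, against 9.70 to 10.10 (median 9.84, difference 0.55). GNL3L, a nucleolar GTPase, read 9.32, 9.65 and 9.33, against 8.69 to 9.18 (median 8.84, difference 0.53). ZNF430, a zinc finger protein, read 11.66, 11.87 and 11.62, against 11.05 to 11.40 (median 11.20, difference 0.52). It was the last gene named by rank, and MCMDC2 followed at 0.51.

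For several higher genes a second probe did not show the same difference. EID2B, a relative of the differentiation inhibitor EID1, had a difference of 0.58 by its brighter probe, with 10.31 on HIP1 4, 10.75 on vector 3 and 10.64 on vector 4, against 9.71 to 10.17. Its dimmer probe differed by 0.19 and overlapped. POFUT1, which adds O-fucose to Notch receptors, differed by 0.55 and 0.14, and ARL16, a small GTPase, by 0.54 and 0.19. ZNF682 differed by 0.53 and 0.02. HIPK2, a nuclear kinase, went opposite ways, with 0.52 by the brighter probe and -0.21 by the dimmer, each without overlap. In each of these 5 genes 1 probe was higher without overlap and the other was not.

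Some higher probes name genes known from other tissues. NLRP8, an NLR-family gene, read 9.73 on HIP1 4, 9.93 on vector 3 and 9.53 on vector 4, against 8.95 to 9.29 (difference 0.58). DMC1, a recombinase of meiosis, read 9.49, 9.82 and 9.33, against 8.71 to 9.21 (difference 0.58). LEP, which encodes the fat-cell hormone leptin, read 7.33, 7.31 and 7.19, against 6.57 to 7.17 (difference 0.52). The median of the 9 was 6.73, below the background level. Of the 9, HIP1 2 (7.17) and HIP1 5 (7.08) alone were above that level. LEP thus passed the filter only through the 3 arrays where it is high, and its rank rests on them.

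The cytokine gene IL10 and the leukocyte receptor gene LILRB1 were chosen after their values were seen. IL10 read 9.09, 9.13 and 9.02, against 8.29 to 8.87 (difference 0.46), and LILRB1 read 11.00, 11.19 and 11.11, against 10.50 to 10.78 (difference 0.44). Of the leukocyte and red-cell markers, PTPRC, CD3E, CD14, LYZ, HBA2, HBB and CD74 were below the background level. CD68 passed it, with a mean of 7.15 on the 3 arrays and 7.15 on the 9. AOC4P, a pseudogene of the amine oxidase family whose probe may read related copies, differed by 0.56. What these probes bind in LNCaP was not tested.

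Genes with several probes gave more than 1 reading of the same difference. Over 2625 pairs of probes naming the same gene, the differences (3 minus 9) of the paired probes correlated at r = 0.26. For HIP1-labelled minus vector, the same pairs correlated at r = 0.61. With both probes above 8, the values were 0.34 and 0.69 over 1055 pairs. Both probes of a pair are read on the same arrays, and the pairs are not independent.

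In 52 pairs a probe differed by at least 0.5 between the 3 and the 9, and 36 of these (69.2%) had the same direction in both probes. For the construct the count was 28 of 32 (87.5%). This comparison of probes was added after the values were seen, and the gap between the shares was not tested.

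**Figure D3:**
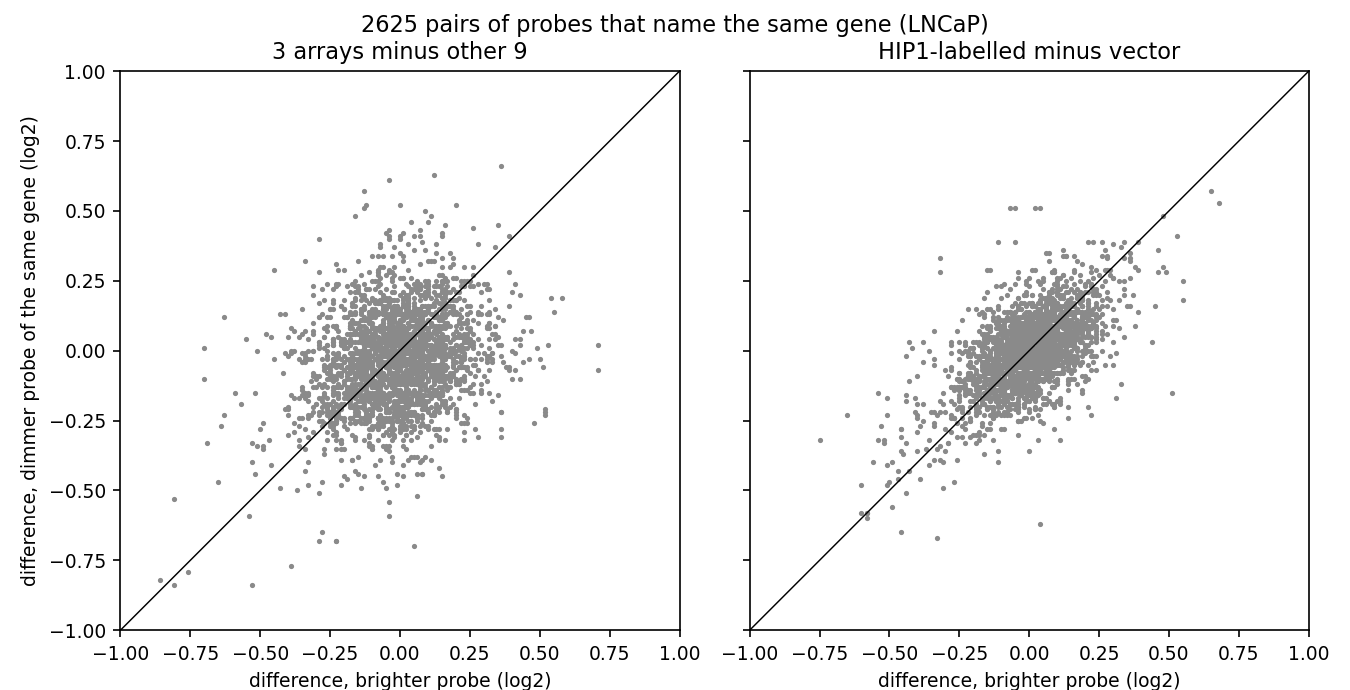
Difference by the brighter probe (horizontal, log2) against a dimmer probe of the same gene (vertical, log2) for 2625 probe pairs, for the 3 arrays minus the other 9 (left) and HIP1-labelled minus vector (right), with the line of equality. The left cloud is rounder (r = 0.26) than the right one (r = 0.61), and the points far down the line at the left are STAT3, CTNNB1 and USF1.

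Of 1877 genes with several tested probes, 190 had at least 1 probe below all 9 on the 3 arrays, and in 15 of them every probe was. For the higher direction the counts were 116 and 3, and 6 genes had probes in both directions. Over all probes, 4.09% lay below all 9 and 3.29% above. A gene with several probes has more chances that at least 1 does, so nothing is read from these counts. The 18 genes lower or higher by every probe were chosen after their values were seen. Besides STAT3, CTNNB1 and USF1, the lower ones were ACTG1 (gamma-actin), CEPT1 (phospholipid synthesis), YWHAE (a 14-3-3 protein), SMS (spermine synthase), ARF4 (a GTPase of Golgi transport), CSNK2A1 (casein kinase 2 alpha), PCBP2 (an RNA-binding protein), PRDX3 (a mitochondrial peroxiredoxin), IDH1 (cytosolic isocitrate dehydrogenase), BTF3L4, SLC25A40 and PCNX4.

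Their sizes were mostly modest. CEPT1 differed by -0.53 to -0.33 over 3 probes, SMS by -0.49 and -0.43, YWHAE by -0.50 and -0.37, and IDH1 by -0.24 and -0.21. ACTG1 differed by -0.68 by the dimmer probe and by -0.23 by the brighter. The higher ones were FMC1 (0.26 and 0.44) and ATP5MF (0.21 by both), which serve the mitochondrial ATP synthase as an assembly factor and as a subunit, and SEM1, a small proteasome subunit (0.13 and 0.23).

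FMC1 read 10.60 on HIP1 4, 10.65 on vector 3 and 10.69 on vector 4 by its brighter probe, against 10.26 to 10.56 (median 10.44) on the 9. The dimmer read 8.85, 8.82 and 8.54, against 8.16 to 8.39 (median 8.31). ATP5MF read 12.87, 12.82 and 12.76 by its brighter probe, against 12.49 to 12.76 (median 12.60). Vector 4 and the highest of the 9 are equal there to 2 decimals.

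Gene lists for pathways of metabolism, stress and growth had medians between -0.12 and 0.08, and in some most members differed the same way. Of 39 lists, 35 had at least 5 genes tested, and these medians (3 minus 9) stand beside a median of 0.00 over all genes. Among the 577 genes of any list, 5 (0.867%) were higher on the 3 arrays without overlap, against 3.36% of all genes, and 24 (4.16%) were lower, against 3.73%. The lower share was thus close to that of all genes, and the higher share was under it.

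The most negative medians were -0.12 for the NRF2 oxidative stress list (13 of 16 genes negative, 0 beyond the 9), and -0.11 for hypoxia response (14 of 17), glycolysis (14 of 18) and heat shock (13 of 16). The most positive was 0.08 for amino acid transporters (8 of 12 positive), followed by 0.07 for the proteasome (16 of 22). Sterol synthesis had a median of -0.05 over 17 genes, the integrated stress response -0.01 over 23 and immediate early genes -0.08 over 18.

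Heat shock genes held 3 lower members of 16 tested, beside 3.73% of all genes. HSPA1B, an inducible HSP70, read 11.81 on HIP1 4, 11.41 on vector 3 and 11.47 on vector 4, against 11.88 to 12.49 (difference -0.55). It has the near-identical copy HSPA1A. HSPA1B was also called higher for the construct (0.37, limma adjusted p = 0.00114), and HIP1 4 lay just under vector 1 (11.88). That p-value is too small, because the model held the 3 against the 9, which were taken from the same values. Without them in the model the rise was 0.46 (limma adjusted p = 0.0264). HSPA9, the mitochondrial HSP70, read 11.09, 10.98 and 11.04, against 11.29 to 11.69 (difference -0.42). DNAJB1, an HSP40, differed by -0.32.

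Lysosome and autophagy genes also held 3 lower members of 18, beside 3.73% of all genes and a list median of -0.01. CTSD, the protease cathepsin D, read 8.47 on HIP1 4, 8.28 on vector 3 and 8.43 on vector 4, against 8.63 to 9.08 (difference -0.48). LAMP1, a membrane protein of lysosomes, differed by -0.35. LAMP2 differed by -0.24 by its brightest probe, while its other 5 probes overlapped between the sides.

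Of 10 genes tested in the list of JAK-STAT components and STAT3 feedback genes, 2 were below the 9, beside 3.73% of all genes. They were STAT3 and IL6ST, the signal-transducing receptor of IL6-family cytokines. IL6ST read 8.05 on HIP1 4, 8.20 on vector 3 and 8.05 on vector 4, against 8.30 to 8.68 (median 8.51, difference -0.39). PIM1, a kinase induced by STAT3, had a difference of -0.38 with overlap. The list as a whole had 5 positive and 5 negative members and a median of -0.03.

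Other lists had 1 member or 2 beyond the 9. In the respiratory chain the complex I subunits went apart: NDUFB3 was higher (12.76 on HIP1 4, 12.63 on vector 3 and 12.63 on vector 4, against 12.23 to 12.51) and NDUFV1 lower (10.59, 10.61 and 10.70, against 10.92 to 11.06). In the ER chaperone list CALR (calreticulin) was higher (0.36) and HYOU1 lower (-0.25). HSD17B7, an enzyme of sterol synthesis, was higher (0.36). ORC6, of the origin recognition complex, was higher by the brighter of its probes (0.25) and overlapped by the other (0.04).

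PSPH, the last enzyme of serine synthesis, was lower by its brightest probe (-0.51), while its other probe overlapped (0.00). RRM2B, a p53-induced ribonucleotide reductase subunit (-0.51), and HERC3, a ubiquitin ligase in the androgen response list (-0.50), were lower. Smaller differences were seen in ITGAV, an integrin (-0.35), PSMC4, a proteasome ATPase (-0.34), TSR1, a ribosome maturation factor (-0.34), and EPRS1, a tRNA synthetase (-0.29). PGAM1 of glycolysis differed by -0.24 by its brightest probe. In the same list the dimmer probes of ALDOA (-0.77) and TPI1 (-0.39) lay below the 9, while their brightest probes overlapped (-0.39 and -0.21). ACTB differed by -0.29 by its brightest probe and by -0.68 by its dimmest, both without overlap, and by -0.23 with overlap by the other. The other probes of PSMC4, PGAM1, HYOU1 and NDUFB3 differed the same way with overlap.

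**Figure D4:**
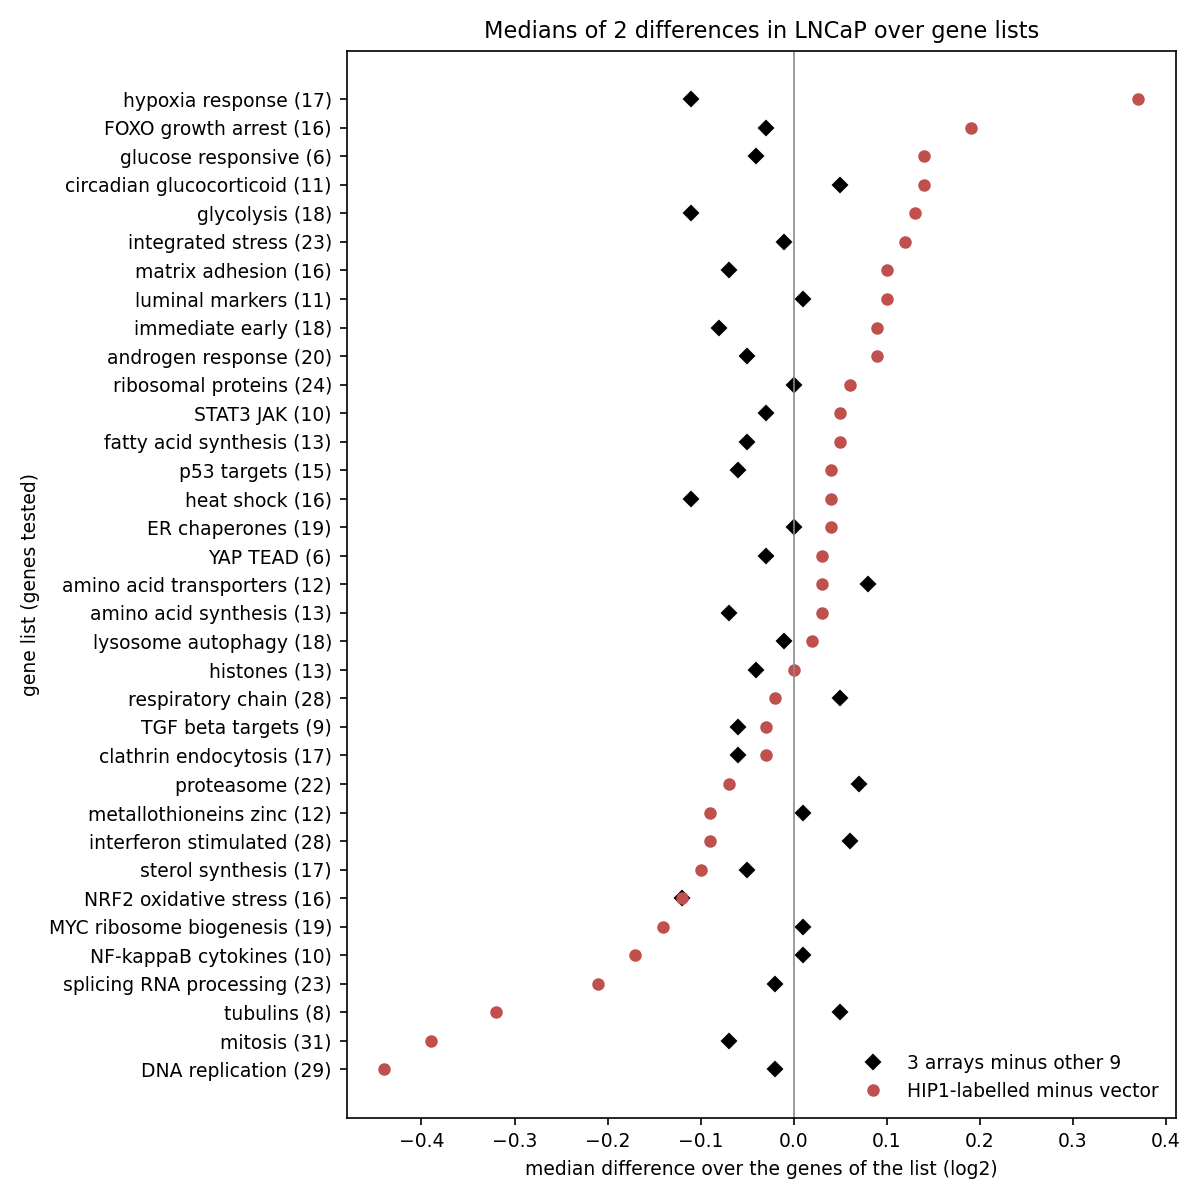
Median difference over the genes of 35 lists (log2), for the 3 arrays minus the other 9 (black diamonds) and for HIP1-labelled minus vector (red circles), with the genes tested in brackets. The diamonds lie between -0.12 and 0.08 in every list, and the circles reach -0.44 for DNA replication and 0.37 for hypoxia response.

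Some gene families were grouped by symbol after the values were seen, and they hold a small part of the 297 higher genes. Of 76 mitochondrial ribosomal protein genes, 12 were higher (15.8%) and 2 lower, with a median of 0.11, beside 3.36% and 3.73% over all genes. MRPL15 (0.31), MRPL51 (0.31) and MRPS21 (0.36, with 0.02 and overlap by its other probe) were among them. Of 13 TIMM genes for mitochondrial import, 4 were higher and 0 lower, among them TIMM9 (0.34) beside TIMM8B. Of 19 COX genes, 3 were higher and 0 lower.

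Zinc finger genes of the ZNF family followed, with 18 of 244 higher (7.38%) and 2 lower (0.82%) and a median of 0.05. Cytosolic ribosomal proteins had 4 of 73 higher (5.48%) and 1 lower (1.37%). RAB GTPases, which direct vesicle traffic, had 1 of 49 higher (2.04%) and 4 lower (8.16%). Over all genes the shares were 3.36% higher and 3.73% lower, and nothing is read from counts of so few genes. A family picked for how it moved is no independent evidence of its direction.

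Higher and lower genes had different median lengths. The gene span in RefSeq had a median of 17.9 kb (quartiles 7.85 and 44.4) for the 297 higher genes, 34.6 kb (15.2 and 60.7) for the 330 lower genes and 27.9 kb for the overlapping ones. Promoter GC content had medians of 62.7%, 67.0% and 65.3%, in the same order. These are descriptions of genes chosen by their values, without a test.

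The construct was set beside this pattern. HIP1 itself, by its 1 named probe, averaged 7.29 ± 0.15 on HIP1-labelled arrays and 7.40 ± 0.16 on vector arrays (mean ± SD, n = 6 each). The difference was -0.11 (SE 0.08, 95% interval -0.28 to 0.06, limma adjusted p = 0.459). The labelled overexpression was therefore not seen by this probe. No source used here says whether the probe lies within the construct, and the 6 arrays are called HIP1-labelled for that reason. On the 3 arrays HIP1 read 7.40 on HIP1 4, 7.19 on vector 3 and 7.59 on vector 4, against 7.11 to 7.52 on the 9, a difference of 0.04.

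With the 3 against the 9 as a term in the model (the side term), 1120 probes were called between HIP1-labelled and vector arrays at an adjusted p under 0.05 (limma, Benjamini-Hochberg). Of these, 497 rose (3.85%) and 623 fell (4.82%). By the brightest probe, 364 genes rose (4.12%) and 470 fell (5.31%). Without that term 861 probes were called, 374 that rose and 487 that fell, and all 861 were among the 1120, of which they make up 76.9%. The term was taken from the same values and narrows the residual spread, so the p-values with it are too small. Without the 3 arrays altogether, 710 probes were called.

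Of the 1120 called probes, 17 (1.52%) also separated the 3 from the 9, beside 7.38% of all 12912 probes. The 3 arrays hold both constructs, so probes that differ by construct overlap more readily, and nothing is read from the gap. The 6 called genes with the largest rises were COXFA4L2, GDF15, NDRG1, DHRS3, ENO2 and BCHE, and the 6 with the largest falls were ISG15, ZWINT, MCM5, MCM2, TK1 and CDC45. In each of these 12 the 3 arrays overlapped the 9.

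GDF15, a stress-induced cytokine, averaged 14.43 ± 0.16 on HIP1-labelled and 13.62 ± 0.33 on vector arrays (n = 6 each), a rise of 0.80 (SE 0.12, limma adjusted p = 0.000161). Across the sides it differed by -0.07. MCM5, a subunit of the replicative helicase, averaged 8.16 ± 0.18 on HIP1-labelled and 8.83 ± 0.23 on vector arrays and fell by 0.69 (SE 0.09, limma adjusted p = 9.41e-05). COXFA4L2, listed under NDUFA4L2 in older annotation, rose by 0.82 (SE 0.22, limma adjusted p = 0.0214). That call was lost without vector 2 (limma adjusted p = 0.0611), and also without vector 5 or HIP1 6. COXFA4L2 read 11.85 on vector 6, within the HIP1-labelled range of 11.18 to 12.15, and 9.74 to 10.96 on the other vector arrays.

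In DNA replication genes, 26 of 29 were called lower and 0 higher for the construct (median -0.44), beside 5.31% of all genes called lower. The 3 arrays differed from the 9 there by a median of -0.02. In mitosis genes, 27 of 31 fell (median -0.39), against a median of -0.07 between the sides. In the hypoxia list, 12 of 17 were called higher (median 0.37), beside 4.12% of all genes. The median between the sides was -0.11. The vector arrays were not uniform in this list. Vector 6 was the highest of them for VEGFA, BNIP3L, P4HA2 and AK4 by the brightest probe, and the lowest for FAM162A. BNIP3L read 10.66 on vector 6, against 9.57 to 10.12 on the other vector arrays and 10.26 to 10.47 on HIP1-labelled arrays. These calls rest on the p-values with the side term, which are too small. Without that term 26, 25 and 12 genes were called the same way, and the construct medians were -0.44, -0.41 and 0.39, in the same order.

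STAT3 was not called for the construct with or without the side term. Its brightest probe averaged 9.13 ± 0.33 on HIP1-labelled and 9.0 ± 0.45 on vector arrays (n = 6 each). Without the side term the difference was 0.13 (limma adjusted p = 0.71). With it the value was 0.00 (95% interval -0.15 to 0.15, limma adjusted p = 1.0). The HIP1-labelled group holds 1 of the 3 low arrays and the vector group holds 2.

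The PNT1a arrays took no part in choosing the LNCaP arrays. In that line 11164 of the probes also passed the background level, among them 391 of the higher and 499 of the lower ones. Each PNT1a array was set against the other 5 of its construct group, in a comparison added after the values were seen. Over the higher probes, HIP1 1, HIP1 6 and vector 6 had median deviations of 0.08, 0.11 and 0.19. Over the lower probes the same arrays had -0.11, -0.19 and -0.19. These 3 PNT1a arrays were singled out by the signs of these deviations, so the match to the LNCaP direction is part of that choice. It is no independent recurrence of the LNCaP pattern.

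The other 9 PNT1a arrays had -0.11 to -0.05 over the higher probes and -0.02 to 0.14 over the lower ones. Deviations balance within a group of 6, so some arrays of a group tend to deviate each way in any set of probes. The opposite sign of these 9 follows from the way the value is computed and is no finding. Across probes, the deviation of an array correlated with the LNCaP difference at r = 0.25 for HIP1 1, 0.21 for HIP1 6 and 0.29 for vector 6. These r values come from the deviations of the arrays singled out above and add no separate support. For the other 9 the same balance pulls r below 0, and it was -0.33 to -0.03. The 24 arrays were deposited as 1 normalized table, and probes are not independent.

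**Figure D5:**
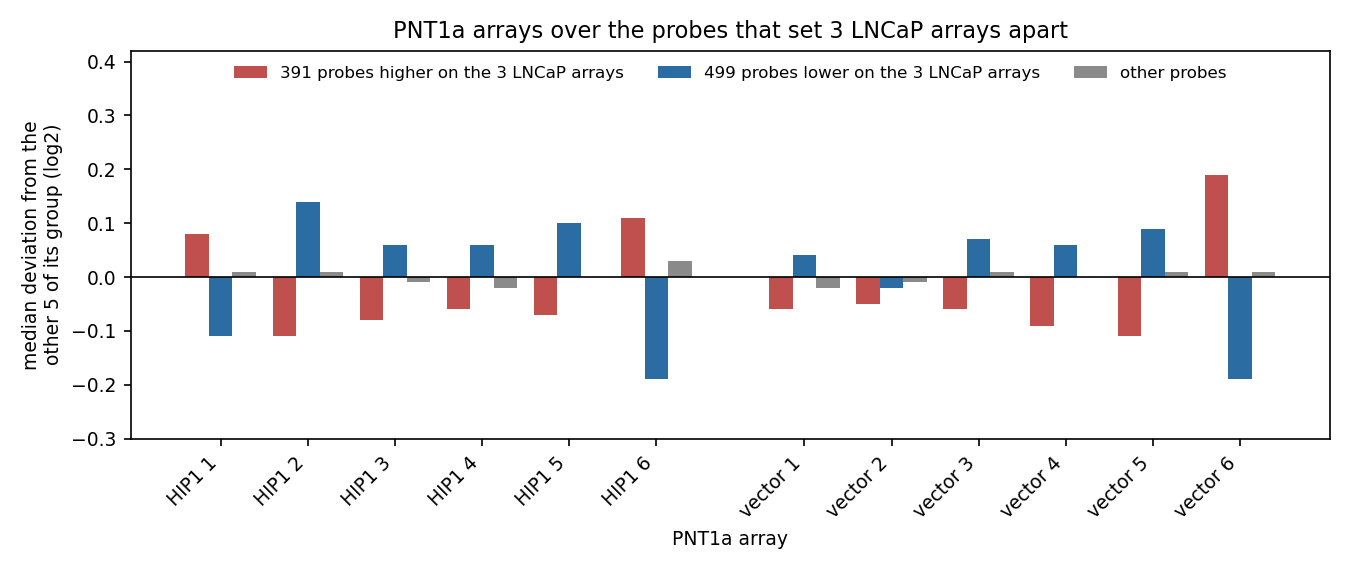
Median deviation of each PNT1a array from the other 5 of its group (bars, log2), over probes higher (red) or lower (blue) on the 3 LNCaP arrays and over the other probes (grey). HIP1 1, HIP1 6 and vector 6 lie above 0 in red and below 0 in blue, the others, set against those 3, lie below 0 in red, and grey stays within 0.03 of 0.

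The named genes went along in part. CTNNB1 was lowest in PNT1a on these arrays by both probes. The brighter read 7.53 on HIP1 1 and 6.98 on HIP1 6 (median 8.13 over the 6 HIP1-labelled arrays) and 7.53 on vector 6 (median 8.34 over the 6 vector arrays). SNRNP40 read 8.72 on HIP1 1 and 8.48 on HIP1 6, against a median of 9.58 over HIP1-labelled arrays, and 9.02 on vector 6, against a median of 9.39.

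STAT3 was less uniform. By its brightest probe, HIP1 1 (9.39) and vector 6 (9.30) were the lowest of their groups, while HIP1 6 (10.44) was the highest of all 12. By the probe ILMN_2410986, HIP1 1 read 8.75, HIP1 6 read 8.07 and vector 6 read 7.77, against group medians of 9.25 for HIP1-labelled and 9.04 for vector arrays. The probes of STAT3 thus disagreed on HIP1 6.

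USF1 disagreed too. Its brighter probe was the lowest of its group on HIP1 1 (7.66) but the highest on HIP1 6 (8.95) and on vector 6 (8.89), against group medians of 8.20 for HIP1-labelled and 8.69 for vector arrays. That is opposite to the LNCaP direction on both replicates numbered 6. Its dimmer probe read 7.16 on HIP1 1, 7.05 on HIP1 6 and 7.30 on vector 6, against medians of 7.32 and 7.64.

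Among higher genes, HYPK read 11.12 on HIP1 6 and 11.81 on vector 6, against group medians of 9.65 and 9.65, and 9.69 on HIP1 1. NLRP8 read 10.57 on HIP1 6 and 11.46 on vector 6, against medians of 9.14 for HIP1-labelled and 9.12 for vector arrays, with 9.27 on HIP1 1. The 2 replicates numbered 6 were the high ones in both genes. They were also the highest PNT1a arrays for DMC1, IL10, LILRB1, LEP, ZNF430 and the brighter probe of EID2B. DMC1, for example, read 10.28 on HIP1 6, 11.15 on vector 6 and 8.92 on HIP1 1, against a PNT1a median of 9.03. TIMM8B did not follow, with 6.96 on both replicates numbered 6 and a PNT1a median of 6.96. MT1X in PNT1a was split by other arrays, with 10.68 on HIP1 3 and 10.55 on HIP1 4 but 8.28 on HIP1 1.

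Raw brightness could be read for the 6 HIP1-labelled LNCaP arrays, whose raw columns carry names that match the labels. HIP1 4 had the lowest median raw intensity, 87.3, against 91.9 to 103 on the other 5. It also had the lowest 75th and 95th percentiles (111 and 930) and mean (342, against 346 to 372). The part of brightness in the differences was not tested, and raw columns of vector 3 and vector 4 were not used here.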

How the data were processed

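RNA of 12 LNCaP arrays (and, for 1 comparison, 12 PNT1a arrays) was measured. Column-kit total RNA, checked on a Bioanalyser, was made into biotin-labelled cRNA, per the labels' protocols. The table the authors deposited holds log2 values of 48803 probes, with 0 missing. Its sorted columns differ by at most 0.052, so all 24 arrays share a single distribution, which removes differences in overall brightness. Of the software and the normalization nothing is stated (not given in the sources used here). Raw intensity per bead type is in another deposited table, and 6 of its 24 value columns match the labels by name, so the other 18 were not used. It gives no depth beyond signal, and the number of arrays limits the precision.

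Background was set at 3 SDs (0.163 each, from values below the mode) above the mode of the table (6.48). The 3 arrays and the other 9 were taken as given, from the values. A linear model with side and construct was fitted in limma 3.58.1 (R 4.3.3) over 12912 probes. Only the construct was tested, two-sided, with Benjamini-Hochberg adjustment over all probes and calls at 0.05. The fit was checked on simulated data. Descriptions used Python 3.11.15 with pandas 2.3.3. Symbols came from the platform annotation: 28098 probes have a single symbol, 13 several and 20692 none, and 28059 gene IDs matched RefSeq. Each gene entered by its brightest tested probe.

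The genes named are HIP1, STAT3 and GDF15, the 15 highest and 15 lowest differences among genes whose 3 arrays all lay beyond the 9, up to 5 members of a list, and the 6 largest rises and falls called for the construct. Others are stated as chosen after their values were seen. The members and lists were chosen with earlier results of these data known. Alternatives were other filters, centring, each construct alone, a replicate block, leaving out each array, no side term, leaving out the 3 arrays, and a fit over 24 arrays.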

Additional observations from a re-analysis of the deposited data

Results flagged for a closer look

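In a group of 6 arrays, a sample was singled out when its gap to the nearest other sample took up most of the range of the group, by Dixon's 95% critical value. Over 86 groups (named genes, with HIP1-labelled and vector arrays apart), 14 had such an array, and 13 of these were HIP1 4. Chance gives about 1 group in 20. HIP1 4 is the 1 HIP1-labelled array among the 3 arrays, and 12 of its 13 genes were named because the 3 arrays differ in them, with STAT3 named in any case, so these values restate that choice.

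Within the 6 HIP1-labelled arrays, HIP1 4 was lowest for SNRNP40 (8.98), USF1 (8.10), RPN1 (11.51), FADS2 (7.81), STT3A (10.37), COPG1 (9.39), RTN3 (9.74), PABPN1 (9.0), SFXN1 (7.99), STAT3 (8.50), CDC42SE1 (8.12) and MT1X (11.79). It was highest for NLRP8 (9.73). No group of vector arrays was singled out, and it holds 2 of the 3 arrays, vector 3 and vector 4.

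Apart from HIP1 4, CDC45, a replication factor, was low on HIP1 2 (8.80) beside the other HIP1-labelled arrays. CDC45 fell for the construct in every alternative run, with limma adjusted p up to 0.00073.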

How the results depend on the processing

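The arrays were chosen from their values, so agreement of directions below is no evidence of stability. Probes at least 2-fold apart numbered 0, against 3 within HIP1-labelled arrays, 15 with a replicate block, and 0 to 1 leaving out an array. At 1.5-fold, a size added after the values were seen, 8 were higher and 30 lower. Vector arrays alone gave 17 higher, HIP1-labelled arrays alone 48, and the replicate block 232 higher and 200 lower. Leaving out an array gave 4 to 28 higher, with 4 without vector 3, 28 without vector 4, 14 without vector 5 and 17 without HIP1 4, and 26 to 42 lower. The replicate block moved CTNNB1 to -1.36, DMC1 to 0.92, LEP to 0.80, HYPK to 0.32 and ARL16 to 0.06. Same-numbered arrays correlated at -0.219 to 0.303. For every replicate number except 6 (0.124 against 0.081), an array of another number correlated more highly. A single same-numbered value was set against the highest of several others, which favours the other numbers in any case. The sides were left in these values, so they do not settle whether the numbers pair the samples. With the block, only replicate 3 has an array on each side, vector 3 and HIP1 3. The differences with the block therefore rest on that pair, and vector 4 and HIP1 4 do not inform them.

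Construct calls, 1120 with the side term, numbered 584 with no filter (more probes tested), 710 without the 3 arrays (fewer samples), 1012 with the replicate block and 210 in the fit over 24 arrays, where PNT1a shares the spread. Leaving out an array gave 672 to 1395, with 672 without vector 2, 701 without vector 5 and 709 without HIP1 4. COXFA4L2 lost its call without vector 2, vector 5 or HIP1 6, and DHRS3, ENO2 and ISG15 in the fit over 24 arrays (limma adjusted p = 0.256, 0.0607 and 0.0733). STAT3 stayed uncalled (0.71 to 1). None of the 30 ranked genes changed direction between the sides, while HIP1 (-0.23 with the block) and GDF15 (up to 0.16) did from values near 0. Of 626 recomputed gene differences between the sides 17 moved by more than the spread, as did 31 of 700 list medians; the cause was not tested. Signal near background limits LEP.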
